A study of Mus musculus with 8 samples.

Results

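The genes described here are 34 genes that carry glucose into the cell, break it down to pyruvate and lactate, and pass pyruvate or reducing equivalents on to the mitochondrion. They were taken from the deposited expression table by gene symbol, and each of the 34 symbols matched 1 of its 24341 rows. The table comes from RNA sequencing of 8 lysates of mouse heart ventricle, and it was made to ask how the adult ventricle differs after loss of Med13 and Med13l, which encode interchangeable subunits of the kinase module in the Mediator complex. The cre_positive group (4 libraries) carries Cre recombinase together with floxed Med13 and Med13l, and per the series title the deletion is specific to cardiomyocytes. The cre_negative group (4 libraries) has the same homozygous floxed alleles (Med13/13L fl/fl) without Cre. Mice of both groups were males of 12 weeks that received tamoxifen in their chow, and 4 weeks had passed since tamoxifen. The Cre line and its promoter are not named in the labels, and no group with Cre but without floxed alleles is among these samples, so the deletion and the presence of Cre cannot be told apart. Libraries carry the name of their group and the number in their title, and the labels do not state whether a library is 1 animal. In the deposited library names, cre_negative 1 and cre_negative 2 share the tag 2M, which no other library carries. Whether these libraries come from the same mouse is not stated, so their independence is not known. The names of cre_negative 2 and cre_positive 2 lack the word trim that all others carry.

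Glycolysis splits glucose into pyruvate through a chain of enzymes, most of which exist as isozymes made from separate genes with different tissue patterns. The adult heart takes most of its energy from fatty acids and takes up glucose mainly through the insulin-responsive transporter GLUT4, while the fetal heart relies more on glucose and on the transporter GLUT1. Pyruvate is either reduced to lactate by lactate dehydrogenase or carried into the mitochondrion, where pyruvate dehydrogenase turns it into acetyl-CoA.

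Levels are FPKM, the fragments per kilobase of transcript scaled to the mapped fragments of the library, so genes of different length can be compared. Estimated depth, in units of 1e+06 fragments, was 4.52 to 23.6 in cre_positive libraries and 5.52 to 15.3 in cre_negative libraries. Both targeted genes were lower in every cre_positive library. Med13 stood at 7.39 to 8.73 FPKM in cre_positive and 10.3 to 15.3 FPKM in cre_negative ventricles (log2 change -0.50, limma adjusted p = 0.00612), and Med13l at 2.35 to 2.59 FPKM in cre_positive and 4.38 to 6.13 FPKM in cre_negative ventricles (log2 change -0.74, limma adjusted p = 0.000318). Each value is for the whole gene in all cell types together, with no separate measure of the deleted exons. By the ribosomal precursor Rn45s the libraries fell into 5 with 396 to 1053 FPKM (cre_positive 1 and 2, cre_negative 1, 3 and 4) and 3 with 10.3 to 16.0 FPKM (cre_positive 3 and 4, cre_negative 2), and these are called the high and the low Rn45s sets. The low set sets 2 cre_positive libraries against 1 cre_negative library, so its values are given below without calls. Its calls enter only the counts of settings in which a call was lost. The log2 change of Med13 was -0.51 in the high set (adjusted p = 0.0529, not called) and -0.37 in the low set, and it was -0.21 with each library scaled to the same summed FPKM (adjusted p = 0.187, not called).

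In cre_positive ventricles most glycolysis isozymes assigned here as more widely expressed were higher, and most of those assigned to muscle or heart were lower. Of the 34 genes, 30 had a mean of at least 1 FPKM and were tested, and the other 4 (Slc2a3, Hkdc1, Aldoc and Eno2) lay below. Among those 30, 10 were called higher, 11 lower and 9 were not called at a limma adjusted p under 0.05. Over all 11688 genes tested, 19.7% were called higher and 19.4% lower. The 10 genes called higher were Slc2a1, Hk1, Gpi1, Pfkl, Pfkp, Pgam1, Eno1, Pkm, Ldha and Gpd1. The 11 genes called lower were Slc2a4, Hk2, Pfkm, Pfkfb1, Pfkfb2, Pgam2, Eno3, Ldhb, Ldhd, Mpc1 and Mpc2. In 10 tested genes every cre_positive library lay above every cre_negative library, against 19.3% of all genes, and in 13 every cre_positive library lay below, against 18.7% of all genes. The changes largely cancelled over the whole set, with a median log2 change of -0.0466, beside -0.00695 over all genes tested.

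Grouped by isozyme type, 7 of the 8 more widely expressed forms were called higher, 0 lower, and Pfkfb3 was not called. The types were assigned by hand for this comparison. Ldha is counted as widely expressed although its chain is also typical of skeletal muscle, and Ldhb is counted as the heart form. Among the 10 forms assigned to muscle or heart, 8 were called lower, Aldoa was not called and Gpd1 was called higher. Within the high Rn45s set alone 8 of the 30 genes were called higher and 11 lower, beside 1561 higher and 1531 lower of all 11687 genes tested there. In each set all 21 called genes had the direction given here. The summed FPKM of all genes outside small and ribosomal RNA was lower in cre_positive libraries (406288 to 419357) than in cre_negative libraries (490772 to 537491). When each library was scaled to the same sum, the median log2 change of all genes moved to 0.27, and 84.5% of all calls were higher instead of 50.4%. Under that scaling 16 of the 30 genes were called higher and 9 lower, beside 5487 higher and 1010 lower of all 11688 genes tested. Relative to that shifted median the 21 called genes kept the side of the median given here, and the calls of Pgam2 and Mpc1 were lost.

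**Figure D1:**
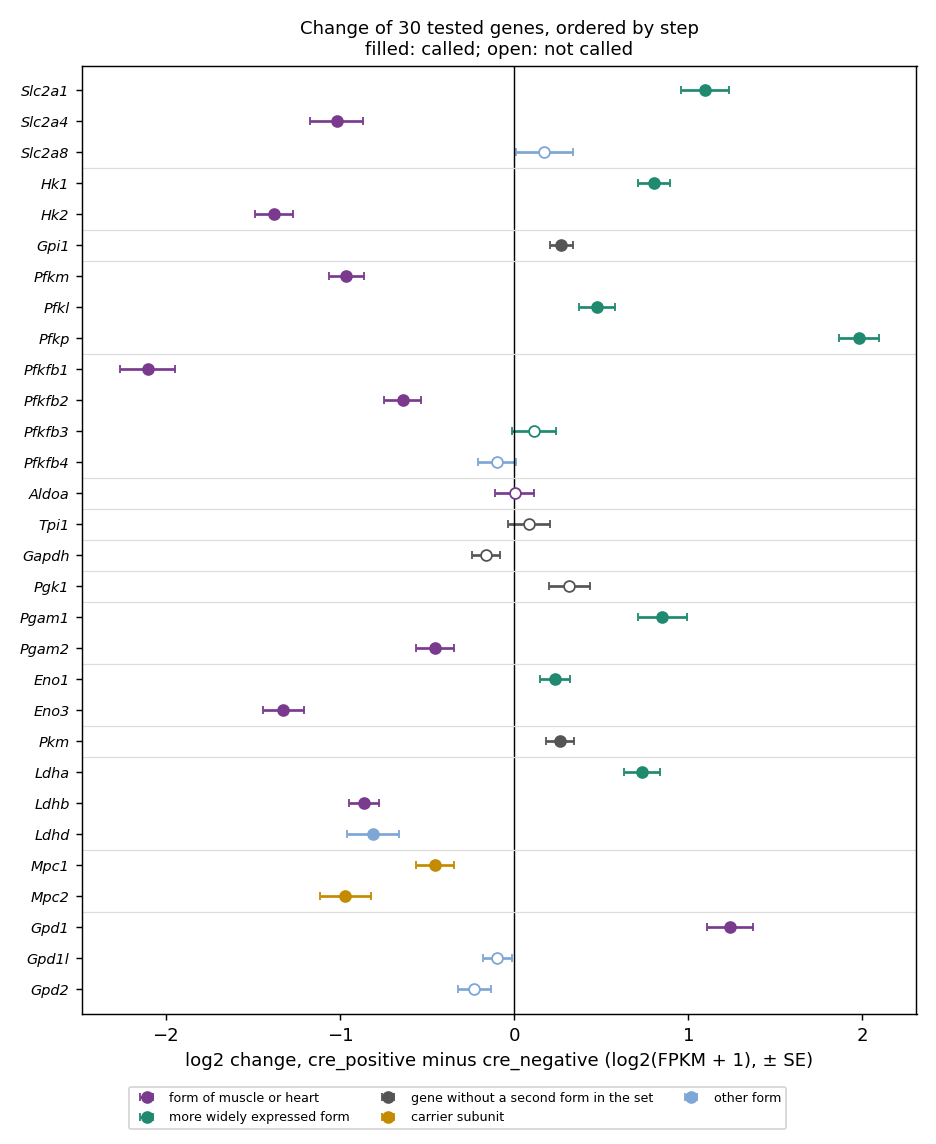
The log2 change of each of the 30 tested genes (horizontal axis, log2(FPKM + 1), cre_positive minus cre_negative, bars show the SE from limma, 4 libraries per group), ordered from glucose uptake at the top to the glycerol-3-phosphate shuttle at the bottom. Filled points are called at an adjusted p under 0.05; purple muscle or heart forms lie left of 0 except Aldoa and Gpd1, and green widely expressed forms lie right of 0.

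Marker transcripts of the cell types in the ventricle also differed between the groups. Of 8 cardiomyocyte markers 5 were called lower and 0 higher, and their summed level was 26854 to 28014 FPKM in cre_positive and 55146 to 58749 FPKM in cre_negative ventricles. The fall was in Myh6, Tnnt2, Tnni3, Myl2 and Myl3, while Actc1 stood at 10513 ± 726 FPKM in cre_positive and 10403 ± 1251 FPKM in cre_negative ventricles (SD, n = 4 each). Of 10 fibroblast markers 7 were called higher and 1 lower (summed level 1063 to 1230 FPKM in cre_positive and 682 to 808 FPKM in cre_negative ventricles), and of 8 smooth muscle and pericyte markers 4 were higher and 1 lower (937 to 1386 FPKM in cre_positive and 467 to 609.7 FPKM in cre_negative ventricles). Of 10 endothelial markers 1 was higher and 3 lower (366 to 426 FPKM in cre_positive and 435 to 511 FPKM in cre_negative ventricles), and of 9 tested macrophage markers 0 were higher and 6 lower (171 to 244 FPKM in cre_positive and 275 to 342 FPKM in cre_negative ventricles). Erythroid markers gave 0 calls among 4 tested (457 to 712 FPKM in cre_positive and 474 to 1103 FPKM in cre_negative ventricles), and neutrophil markers 0 calls among 2 (1.93 to 5.30 FPKM in cre_positive and 2.60 to 71.9 FPKM in cre_negative ventricles). Lymphocyte, adipocyte and neural markers summed to at most 4.17 FPKM in cre_positive and 4.76 FPKM in cre_negative ventricles, with none tested, and Mpo, Lep and Myh4 were at the lowest listed value in every library. In the skeletal muscle list Acta1 and Tnnt3 were called higher and Ckm lower, with sums of 1568 to 2068 FPKM in cre_positive and 1718 to 2485 FPKM in cre_negative ventricles. The part of these cell types in the isozyme differences was not tested, and in whole ventricle fewer cells of a type and less RNA per cell cannot be told apart.

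At glucose uptake the basal transporter was higher and the insulin-responsive transporter lower. Slc2a1 (chr4:119108745-119137329, mm10), which encodes GLUT1, stood at 12.4, 14.2, 12.4 and 12.5 FPKM in cre_positive libraries 1 to 4 and at 4.57, 7.04, 4.27 and 6.48 FPKM in cre_negative libraries 1 to 4. Each cre_positive library lay above each cre_negative one, and the log2 change was 1.09 with an SE of 0.14 (limma adjusted p = 0.000143). Slc2a4 (chr11:69942286-69948190), which encodes GLUT4, stood at 58.9, 83.1, 79.4 and 89.5 FPKM in cre_positive and at 163, 198, 132 and 141 FPKM in cre_negative libraries. Its groups did not overlap either, with cre_positive library 1 lowest, and the log2 change was -1.02 with an SE of 0.15 (limma adjusted p = 0.000438). Slc2a4 remained the more abundant transporter in both groups. Slc2a8, which encodes the intracellular transporter GLUT8, stood at 5.02 to 8.56 FPKM in cre_positive and 4.75 to 6.97 FPKM in cre_negative ventricles and was not called (log2 change 0.17, limma adjusted p = 0.444), and its change was -0.0321 in the high Rn45s set and 0.22 in the low set. Under scaling to a fixed sum Slc2a8 was called higher (0.45, adjusted p = 0.0374). The transcript of GLUT3, Slc2a3, lay below the filter of 1 FPKM and was not tested. It stood at 0.320 to 0.706 FPKM in cre_positive and 0.433 to 0.857 FPKM in cre_negative ventricles, an estimated 5.73 to 65.9 fragments per library.

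Hexokinase traps glucose in the cell as glucose 6-phosphate, and here the more abundant form differed between the groups. Hk1 (chr10:62268855-62379908), the widely expressed form, stood at 135, 126, 132 and 118 FPKM in cre_positive and at 70.8, 64.0, 84.3 and 73.0 FPKM in cre_negative libraries. Hk2 (chr6:82725027-82774454), the form of insulin-sensitive muscle, stood at 32.9, 35.8, 39.5 and 39.2 FPKM in cre_positive and at 101, 87.3, 116 and 86.8 FPKM in cre_negative libraries. Hk1 thus exceeded Hk2 in each cre_positive library, and Hk2 exceeded Hk1 in each cre_negative library. The log2 change was 0.80 with an SE of 0.09 for Hk1 (limma adjusted p = 7.55e-05) and -1.38 with an SE of 0.11 for Hk2 (limma adjusted p = 6.42e-06). Hkdc1, a related hexokinase domain gene, was listed at 0.01 FPKM, the lowest value of the table, in all 8 libraries, and a count of 0 allows up to 0.0361 to 0.189 FPKM there. The antisense gene Hk1os overlaps Hk1 and averaged 0.203 FPKM in cre_positive ventricles and 0.01 FPKM in cre_negative ventricles; the sources used here do not say whether counting used strand. Gpi1, the isomerase that makes fructose 6-phosphate, averaged 303 ± 8.51 FPKM in cre_positive and 251 ± 9.39 FPKM in cre_negative ventricles (SD, n = 4 each), a log2 change of 0.27 (limma adjusted p = 0.00848), beside 0.19 in the low Rn45s set.

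Phosphofructokinase commits sugar to glycolysis, and its 3 subunit genes moved apart. Pfkp (chr13:6548157-6648771), the platelet form, showed the largest rise of the 30 tested genes and stood at 114, 104, 111 and 94.0 FPKM in cre_positive and at 21.6, 30.8, 24.4 and 28.2 FPKM in cre_negative libraries. The lowest cre_positive library lay far above the highest cre_negative one, and the log2 change was 1.98 with an SE of 0.11 (limma adjusted p = 1.25e-06). Pfkm (chr15:98038744-98132447), the muscle form, stood at 201, 234, 264 and 249 FPKM in cre_positive and at 467, 483, 489.7 and 409.8 FPKM in cre_negative libraries. Every cre_positive library lay below every cre_negative library, and the log2 change was -0.96 (SE 0.10, limma adjusted p = 3.74e-05). Pfkm stayed the most abundant of the 3 in both groups. Pfkl, the liver form, averaged 61.4 ± 5.07 FPKM in cre_positive and 44.0 ± 6.16 FPKM in cre_negative ventricles (SD, n = 4 each; log2 change 0.48, limma adjusted p = 0.00454), with a log2 change of 0.28 in the low Rn45s set. The locus of Pitrm1 overlaps that of Pfkp, and Pitrm1 averaged 27.3 ± 0.209 FPKM in cre_positive and 26.2 ± 2.55 FPKM in cre_negative ventricles and was not called (limma adjusted p = 0.575). Senp1, which overlaps Pfkm, was not called either (adjusted p = 0.770).

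The Pfkfb genes encode the enzymes that make and remove fructose 2,6-bisphosphate, the activator of phosphofructokinase. Pfkfb1, known from liver and skeletal muscle, showed the largest fall of the 30 tested genes and stood at 0.254, 0.593, 0.457 and 0.931 FPKM in cre_positive and at 4.76, 6.05, 4.84 and 7.12 FPKM in cre_negative libraries. The groups were well apart (log2 change -2.10, SE 0.16, limma adjusted p = 5.3e-06), and the cre_positive values rest on an estimated 2.15 to 39.6 fragments per library. The size depends on the pseudocount, with a log2 change of -3.22 at 0.1 FPKM in place of 1 FPKM. Pfkfb2, the heart form, stood at 17.5, 22.5, 21.1 and 19.9 FPKM in cre_positive and at 34.4, 32.8, 34.8 and 26.7 FPKM in cre_negative libraries, again without overlap (log2 change -0.64, SE 0.11, limma adjusted p = 0.000851). Pfkfb3, the inducible form, averaged 2.50 ± 0.456 FPKM in cre_positive and 2.23 ± 0.383 FPKM in cre_negative ventricles (SD, n = 4 each), and Pfkfb4 averaged 1.11 ± 0.178 FPKM in cre_positive and 1.26 ± 0.127 FPKM in cre_negative ventricles. Neither of these was called on the deposited scale (limma adjusted p = 0.509 and 0.515). With libraries scaled to a fixed sum Pfkfb3 was called higher (0.34, adjusted p = 0.0425), and the change of Pfkfb4 was 0.0747, against -0.0983 as deposited.

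On the deposited scale no gene from aldolase to phosphoglycerate kinase was called, but both scalings called some of them higher. Scaling to a fixed sum, which moved the median of all genes to 0.27, called Aldoa (0.32, adjusted p = 0.0128), Tpi1 (0.40, adjusted p = 0.00587) and Pgk1 (0.64, adjusted p = 0.00037) higher. Quantile normalization called the same 3 genes (Aldoa 0.55, adjusted p = 0.000975; Tpi1 0.40, adjusted p = 0.00452; Pgk1 0.58, adjusted p = 0.000596) and Gapdh higher. Aldoa, the muscle aldolase and the most abundant of the 34 transcripts in both groups, stood at 2093, 2280.3, 2233 and 2249 FPKM in cre_positive and at 2218, 2703, 1842 and 2151 FPKM in cre_negative libraries. The cre_negative range enclosed the cre_positive one (log2 change 0.0034, limma adjusted p = 0.985), and the sign varied between settings, from -0.27 in the low Rn45s set to 0.55 after quantile normalization. Aldoc, the brain form, was at 0.143 to 0.250 FPKM in cre_positive and 0.0234 to 0.132 FPKM in cre_negative ventricles, which is an estimated 0.999 to 9.97 fragments per library and too few to compare. Tpi1, triose phosphate isomerase, stood at 516 to 629 FPKM in cre_positive and 468 to 686 FPKM in cre_negative ventricles (log2 change 0.0859, limma adjusted p = 0.607). Its change was -0.19 in the low Rn45s set, and the overlapping gene Spsb2 was called higher (6.94 ± 0.472 FPKM in cre_positive and 1.73 ± 0.313 FPKM in cre_negative ventricles). Gapdh, the dehydrogenase that first yields NADH, stood at 1542, 1569, 1479 and 1388 FPKM in cre_positive and at 1612, 1753, 1737 and 1582 FPKM in cre_negative libraries. The Gapdh groups did not overlap, but the difference was not called (log2 change -0.16, limma adjusted p = 0.136) and had the opposite sign under scaling to a fixed sum (0.16) and quantile normalization (0.31, adjusted p = 0.00798). Pgk1, which makes the first ATP of the pathway, averaged 326 ± 27.8 FPKM in cre_positive and 263 ± 43.4 FPKM in cre_negative ventricles (SD, n = 4 each) and lay just outside the threshold (log2 change 0.32, limma adjusted p = 0.0533). The gene also passed without cre_negative library 2 (log2 change 0.42, adjusted p = 0.00559) and without cre_positive library 1 (0.38, adjusted p = 0.0343). It passed too with a filter at 5 FPKM (adjusted p = 0.0492) and with the Rn45s set as a batch term (0.25, adjusted p = 0.0467). Pgk1 did not pass without cre_positive library 2, 3 or 4 (limma adjusted p = 0.119, 0.135 and 0.110) or without cre_negative library 1 (0.103). Its log2 change was 0.0712 in the low Rn45s set. Several of these genes have processed pseudogenes, and the sources used here do not say how reads that fit more than 1 place were counted.

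Phosphoglycerate mutase has a form of brain and most tissues and a form of muscle, and they moved in opposite directions. Pgam1, the first, stood at 80.2, 79.3, 89.9 and 81.5 FPKM in cre_positive and at 42.9, 62.2, 36.6 and 43.2 FPKM in cre_negative libraries. Pgam2, the muscle form, stood at 523, 624, 660.2 and 635 FPKM in cre_positive and at 848, 977, 733 and 789.9 FPKM in cre_negative libraries. Neither gene overlapped between groups, and cre_negative library 2 was the highest of its group in both. The log2 change was 0.85 with an SE of 0.14 for Pgam1 (limma adjusted p = 0.000771) and -0.45 with an SE of 0.11 for Pgam2 (limma adjusted p = 0.00787). With libraries scaled to a fixed sum the fall of Pgam2 was not called (-0.13, adjusted p = 0.241), nor after quantile normalization (-0.12, adjusted p = 0.266). The bases just before the start of each gene are shown because the genes encode the same activity, differ in tissue pattern and moved in opposite directions. Both runs are the 250 bases upstream of the RefSeq start in build GRCm38.p6, read along the gene: chr19:41911621-41911870 on the plus strand for Pgam1 and chr11:5803797-5804046 on the minus strand for Pgam2. Capitals mark ACGTG on either strand (the core of the element bound by hypoxia-inducible factors), AAGGTCA on either strand (the element of estrogen-related receptors) and the MEF2 motif of muscle genes.
Pgam1: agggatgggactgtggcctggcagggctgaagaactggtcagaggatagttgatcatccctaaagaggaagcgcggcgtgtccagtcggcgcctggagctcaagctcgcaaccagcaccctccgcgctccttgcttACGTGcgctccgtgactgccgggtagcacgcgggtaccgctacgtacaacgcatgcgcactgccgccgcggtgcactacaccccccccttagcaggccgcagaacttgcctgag
Pgam2: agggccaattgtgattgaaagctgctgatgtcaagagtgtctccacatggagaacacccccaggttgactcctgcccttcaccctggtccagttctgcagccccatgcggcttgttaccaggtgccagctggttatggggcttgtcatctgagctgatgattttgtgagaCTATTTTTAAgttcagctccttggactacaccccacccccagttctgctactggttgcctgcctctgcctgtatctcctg
The Pgam1 run holds 1 ACGTG and 64.0% G and C with 22 CpG, while the Pgam2 run holds 1 MEF2 motif, no ACGTG and 53.2% G and C with 1 CpG.

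Enolase was the step with the largest fall of its summed level. Eno3 (chr11:70657176-70662513), the muscle form, stood at 403, 509.8, 507 and 592 FPKM in cre_positive and at 1272, 1399, 1189 and 1152 FPKM in cre_negative libraries. No cre_positive library came near the lowest cre_negative one, and the log2 change was -1.32 with an SE of 0.12 (limma adjusted p = 1.5e-05). Eno1, the widely expressed form, stood at 43.5, 43.1, 44.8 and 45.4 FPKM in cre_positive and at 36.6, 43.1, 33.2 and 37.3 FPKM in cre_negative libraries. Its groups nearly touched, and the call was marginal (log2 change 0.24, SE 0.08, limma adjusted p = 0.0489). It was lost in 13 other settings, among them leaving out any single library except cre_negative 2, and the low Rn45s set gave a log2 change of 0.0640. Eno1 also has a near-identical copy, Eno1b, which averaged 13.3 ± 1.83 FPKM in cre_positive and 8.83 ± 2.61 FPKM in cre_negative ventricles (SD, n = 4 each; log2 change 0.57, limma adjusted p = 0.0236), so the split of reads between the copies is uncertain. Eno2, the neuronal form, was at 0.474 to 0.918 FPKM in cre_positive and 0.259 to 0.568 FPKM in cre_negative ventricles.

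Pyruvate kinase closes glycolysis, and its gene Pkm stood at 818, 871, 915 and 884 FPKM in cre_positive and at 722, 800.4, 702 and 683 FPKM in cre_negative libraries. The groups did not overlap (log2 change 0.26, SE 0.08, limma adjusted p = 0.0231), but the call was lost in 8 other settings, with an adjusted p of 0.0539 without cre_positive library 2, 0.0741 without 3 and 0.0544 without 4, and of 0.0612 without cre_negative library 1 and 0.0738 without 4. Leaving out any single library gave a log2 change of 0.23 to 0.31. One value per gene cannot separate the spliced forms PKM1 and PKM2.

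Lactate dehydrogenase is a tetramer of M chains from Ldha, typical of skeletal muscle and fetal tissue, and H chains from Ldhb, typical of the adult heart. Ldha (chr7:46845804-46855627) stood at 681, 694, 775 and 715 FPKM in cre_positive and at 427, 517, 380.1 and 405 FPKM in cre_negative libraries. Ldhb (chr6:142490249-142507957) stood at 679.7, 781, 758 and 749.8 FPKM in cre_positive and at 1314, 1515, 1277 and 1294 FPKM in cre_negative libraries. The 2 transcripts were at nearly the same level in each cre_positive library, whereas Ldhb was about 3 times Ldha in each cre_negative library. The log2 change was 0.73 with an SE of 0.10 for Ldha (limma adjusted p = 0.00026) and -0.86 with an SE of 0.09 for Ldhb (limma adjusted p = 2.87e-05). Ldhd, which encodes the mitochondrial dehydrogenase of D-lactate, stood at 8.30, 12.3, 12.5 and 11.9 FPKM in cre_positive and at 19.9, 26.0, 18.5 and 17.5 FPKM in cre_negative libraries (log2 change -0.81, limma adjusted p = 0.00164). The upstream runs of the pair are shown for the same reason as those of phosphoglycerate mutase, with the same capitals: chr7:46845554-46845803 on the plus strand for Ldha, at the RefSeq start nearest to the 5′ end of the deposited locus, and chr6:142507958-142508207 on the minus strand for Ldhb.
Ldha: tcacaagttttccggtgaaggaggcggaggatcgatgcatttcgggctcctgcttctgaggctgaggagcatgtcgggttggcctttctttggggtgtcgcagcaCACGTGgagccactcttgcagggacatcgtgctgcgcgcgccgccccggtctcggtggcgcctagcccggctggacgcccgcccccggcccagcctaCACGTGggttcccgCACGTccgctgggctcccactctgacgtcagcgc
Ldhb: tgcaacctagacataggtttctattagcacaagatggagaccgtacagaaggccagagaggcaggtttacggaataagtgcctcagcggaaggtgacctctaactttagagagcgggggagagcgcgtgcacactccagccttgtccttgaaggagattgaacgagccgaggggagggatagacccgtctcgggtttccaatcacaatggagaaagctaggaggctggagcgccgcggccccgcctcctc
The Ldha run holds 3 separate stretches with ACGTG, and the Ldhb run holds none of the 3 motifs. G and C make up 67.2% of the Ldha run and 56.4% of the Ldhb run.

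**Figure D2:**
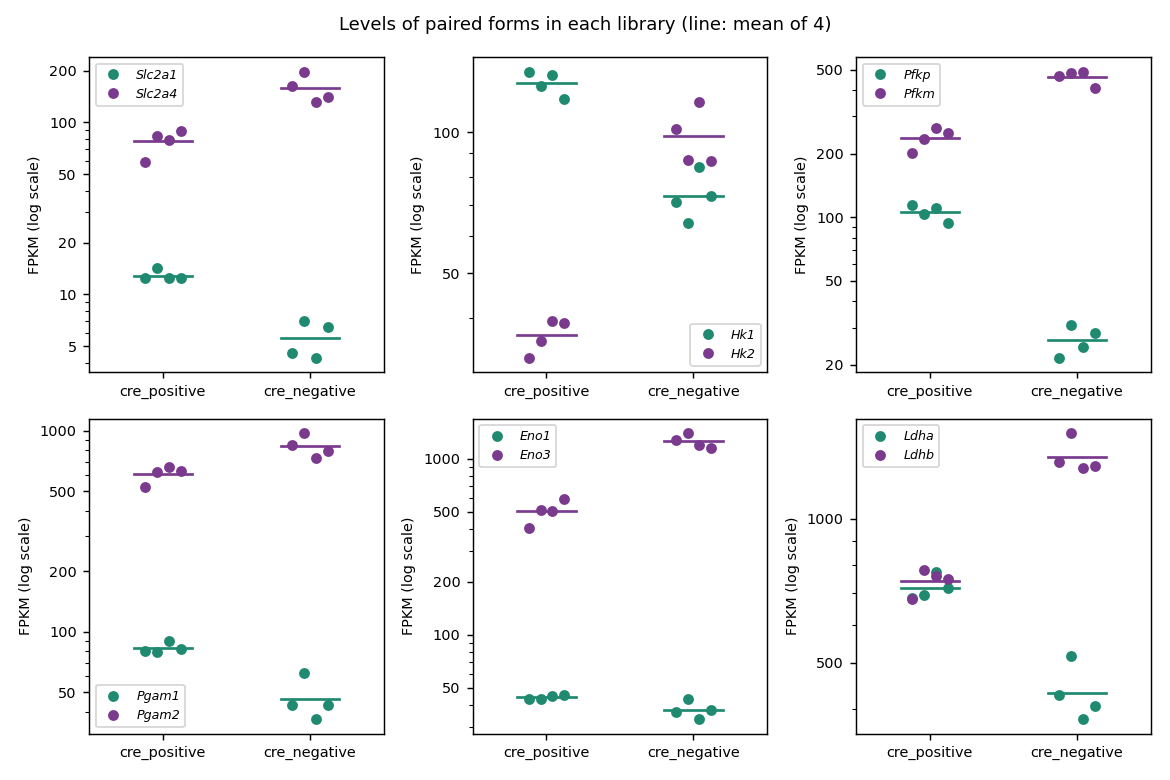
FPKM (vertical axes, log scale) of 6 isozyme pairs in each of the 4 cre_positive and 4 cre_negative libraries (points) with group means (lines), green for the more widely expressed and purple for the muscle or heart form. The order of Hk1 and Hk2 differs between the groups, and Ldha and Ldhb coincide in cre_positive libraries only.

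The 2 genes of the mitochondrial pyruvate carrier, whose subunits work as a pair, were both lower. Mpc2 stood at 142, 203, 188 and 196 FPKM in cre_positive and at 384, 436, 293 and 321 FPKM in cre_negative libraries, and Mpc1 at 496, 503, 415 and 369 FPKM in cre_positive and at 656, 549.97, 615 and 610.3 FPKM in cre_negative libraries. Groups were apart for both genes, by more for Mpc2 (log2 change -0.97, SE 0.15, limma adjusted p = 0.000462) than for Mpc1 (-0.45, SE 0.11, limma adjusted p = 0.0083), and this difference between the genes was not tested. Mpc1 was not called with libraries scaled to a fixed sum (-0.14, adjusted p = 0.321) or after quantile normalization (-0.16, adjusted p = 0.378). Sft2d1, which overlaps Mpc1, was called higher (8.63 ± 1.28 FPKM in cre_positive and 6.15 ± 1.26 FPKM in cre_negative ventricles). Past the carrier, 10 of 12 genes of pyruvate dehydrogenase and its kinases and phosphatases were called lower and 1 higher, against 19.4% and 19.7% of all genes. Their median log2 change was -0.75, beside -0.00695 over all genes tested. The 4 named below are the called genes of this list with the largest change, and they do not show how its kinases or phosphatases moved as a group. The phosphatase Pdp2, which activates the complex, averaged 3.65 ± 0.826 FPKM in cre_positive and 17.0 ± 0.407 FPKM in cre_negative ventricles, and the shared dehydrogenase subunit Dld 122 ± 6.93 FPKM in cre_positive and 249 ± 19.2 FPKM in cre_negative ventricles. Pdhx, the structural binding protein, averaged 45.3 ± 1.47 FPKM in cre_positive and 91.2 ± 5.24 FPKM in cre_negative ventricles. The inhibiting kinase Pdk3 was the gene called higher, at 6.74 ± 1.58 FPKM in cre_positive and 1.89 ± 0.401 FPKM in cre_negative ventricles (SD, n = 4 each; limma adjusted p between 2.41e-06 and 4.56e-05 for these 4 genes).

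The glycerol-3-phosphate shuttle moves reducing equivalents from glycolysis to the mitochondrion. The gene of its cytosolic enzyme was the only one assigned here to muscle or heart that was called higher, an exception that rests on the assignment by hand. Gpd1 stood at 71.7, 66.7, 65.5 and 67.1 FPKM in cre_positive and at 24.0, 35.4, 22.7 and 32.4 FPKM in cre_negative libraries. The cre_positive libraries were tightly grouped and all above the others (log2 change 1.24, SE 0.13, limma adjusted p = 4.83e-05). Gpd1l, a paralog of Gpd1, averaged 22.6 ± 1.26 FPKM in cre_positive and 24.3 ± 2.27 FPKM in cre_negative ventricles (SD, n = 4 each) and was not called (log2 change -0.0967, limma adjusted p = 0.398), though it was called higher under scaling to a fixed sum (0.21, adjusted p = 0.0347). Gpd2, the mitochondrial enzyme of the shuttle, stood at 3.54 to 4.15 FPKM in cre_positive and 4.30 to 5.54 FPKM in cre_negative ventricles, without overlap but not called (log2 change -0.23, limma adjusted p = 0.0788), and at 0.0280 under scaling to a fixed sum.

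Ratios of paired isozymes within a library do not depend on how libraries are scaled, and they were compared for 10 pairs by an exact permutation test (two-sided, 70 ways to assign the libraries), with p adjusted over the 10 pairs. In 7 pairs the ratio of the widely expressed to the muscle or heart form was higher in every cre_positive library than in every cre_negative library (exact p = 0.0286, the smallest this design allows, adjusted p = 0.0357 for each). The geometric mean ratio of Pfkp to Pfkm was 7.93-fold higher in cre_positive ventricles, with library ratios of 0.377 to 0.569 in cre_positive and 0.0462 to 0.0688 in cre_negative ventricles. The ratio of Slc2a1 to Slc2a4 was 4.79-fold higher (0.140 to 0.210 in cre_positive and 0.0280 to 0.0459 in cre_negative ventricles) and that of Hk1 to Hk2 4.63-fold higher (3.00 to 4.09 in cre_positive and 0.698 to 0.841 in cre_negative ventricles). For Ldha to Ldhb the fold was 3.03 (0.888 to 1.02 in cre_positive and 0.298 to 0.341 in cre_negative ventricles), for Eno1 to Eno3 2.96, for Pfkl to Pfkm 2.74 and for Pgam1 to Pgam2 2.49. Summing Eno1 with its copy Eno1b, a choice made after seeing the data, gave a log2 difference of 1.65 in place of 1.57. The ratio of Gpd1l to Gpd1 ran the other way (0.291 to 0.363 in cre_positive and 0.730 to 1.01 in cre_negative ventricles, exact permutation p = 0.0286). That direction depends on counting Gpd1 as the muscle form. Groups overlapped for Pfkfb3 to Pfkfb2 (exact permutation p = 0.0571) and for Aldoc to Aldoa (exact permutation p = 0.114), the second of which rests on very few fragments. Between the Rn45s sets the log2 difference of the 7 ratios ran from 1.43 to 3.21 in the high set and from 1.06 to 2.64 in the low set, where 1 cre_negative library stands alone.

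The same values can be given as shares of the summed FPKM of each step, which are descriptions without a test. Hk1 made up 75.0% to 80.3% of hexokinase transcript in cre_positive and 41.1% to 45.7% in cre_negative ventricles. Ldha made up 46.7% to 50.1% of lactate dehydrogenase transcript in cre_positive and 22.7% to 25.1% in cre_negative ventricles. Pfkp made up 23.3% to 30.8% of phosphofructokinase transcript in cre_positive and 4.05% to 5.90% in cre_negative ventricles. For Pfkl the share was 14.9% to 15.4% in cre_positive and 7.07% to 9.30% in cre_negative ventricles. At 3 other steps the muscle form stayed dominant in both groups. Slc2a4 held 76.9% to 80.5% of glucose transporter transcript in cre_positive and 91.4% to 94.0% in cre_negative ventricles, Pgam2 86.7% to 88.7% of mutase transcript in cre_positive and 94.0% to 95.2% in cre_negative ventricles, and Eno3 90.1% to 92.8% of enolase transcript in cre_positive and 96.8% to 97.2% in cre_negative ventricles.

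**Figure D3:**
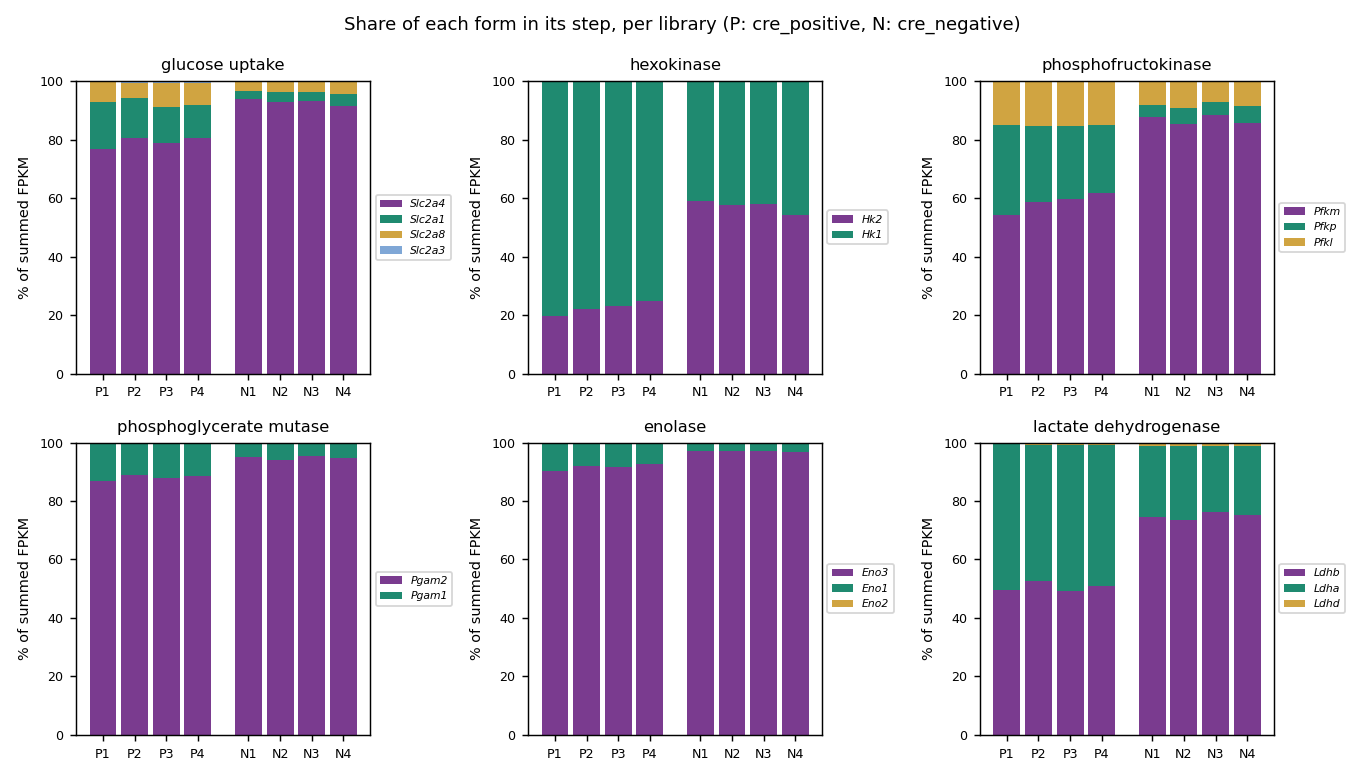
Share of each isozyme in the summed FPKM of its step (vertical axes, percent) in the 4 cre_positive libraries (P1 to P4, left) and the 4 cre_negative libraries (N1 to N4, right) of each panel. Hexokinase, phosphofructokinase and lactate dehydrogenase show the largest differences in share between the groups, with Hk2 at 19.7% to 25.0% in cre_positive and 54.3% to 58.9% in cre_negative libraries.

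Summed levels differed in direction between steps. Hexokinase transcript summed to 164 ± 6.47 FPKM in cre_positive and 171 ± 21.4 FPKM in cre_negative ventricles (SD, n = 4 each) with overlapping libraries, although both of its isozymes were called. Sums of aldolase, triose phosphate isomerase and phosphoglycerate kinase overlapped as well. At 6 of the 12 steps from uptake to lactate every cre_positive library lay below every cre_negative library. The sum was 548 ± 78.1 FPKM in cre_positive and 1291 ± 113 FPKM in cre_negative ventricles for enolase, 97.9 ± 14.9 FPKM in cre_positive and 170.5 ± 30.9 FPKM in cre_negative ventricles for glucose uptake, and 404 ± 29.4 FPKM in cre_positive and 532 ± 38.9 FPKM in cre_negative ventricles for phosphofructokinase. It was 693 ± 63.3 FPKM in cre_positive and 883 ± 115 FPKM in cre_negative ventricles for phosphoglycerate mutase, and 1469.8 ± 73.4 FPKM in cre_positive and 1803 ± 174 FPKM in cre_negative ventricles for lactate dehydrogenase with the D-lactate enzyme included. Gapdh, given above, was the sixth. Only glucose-6-phosphate isomerase and pyruvate kinase, each a single gene, lay above. These sums are on the deposited FPKM scale, and most of the separations depended on it. With libraries scaled to a fixed sum, an alternative added after seeing the data, only glucose uptake and enolase of the 12 steps kept every cre_positive library below every cre_negative one. Under that scaling the phosphofructokinase, Gapdh, mutase and lactate dehydrogenase sums overlapped, and the ratio of group means was 0.947 for phosphofructokinase, 1.12 for Gapdh, 0.982 for mutase and 1.02 for lactate dehydrogenase. Aldolase and phosphoglycerate kinase joined the isomerase and pyruvate kinase in lying above.

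**Figure D4:**
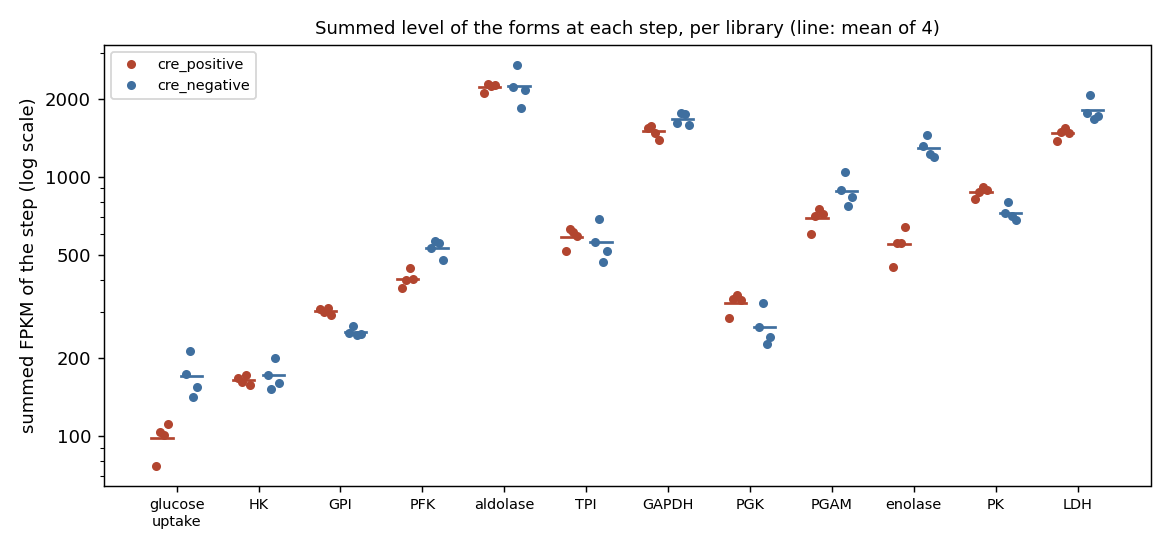
Summed FPKM of the genes of each step (vertical axis, log scale) in cre_positive (red, left) and cre_negative libraries (blue, right), with the mean of 4 libraries as a line. Enolase shows the widest gap, and hexokinase, aldolase, triose phosphate isomerase (TPI) and phosphoglycerate kinase (PGK) overlap.

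Genes around the pathway were counted in lists chosen with earlier results of these data known. Each count stands beside 19.7% called higher and 19.4% called lower over all genes tested. Among other isozymes and transporters of glycolysis 9 of 23 were tested, of which 6 were called lower and 0 higher (median log2 change -0.42). The transporter gene Slc2a12 averaged 1.19 ± 0.196 FPKM in cre_positive and 3.44 ± 0.919 FPKM in cre_negative ventricles, and galactose mutarotase (Galm) 5.96 ± 0.735 FPKM in cre_positive and 9.99 ± 2.24 FPKM in cre_negative ventricles (SD, n = 4 each, limma adjusted p = 0.000578 for Slc2a12 and 0.00564 for Galm). Of 6 tested genes of lactate and proton export 3 were lower and 1 higher (median -0.48). Slc16a3, the lactate exporter MCT4 of glycolytic muscle, averaged 4.70 ± 0.521 FPKM in cre_positive and 0.934 ± 0.370 FPKM in cre_negative ventricles (log2 change 1.58, limma adjusted p = 2.09e-05), whereas Slc16a1, the transporter MCT1 of the heart, averaged 73.5 ± 3.35 FPKM in cre_positive and 121 ± 10.9 FPKM in cre_negative ventricles (log2 change -0.71, limma adjusted p = 6.83e-05). Their shared chaperone Bsg (-0.87) and the carbonic anhydrase Car14 (-1.16) were also called lower.

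In the list of glucose transporter traffic 4 of 12 genes were lower and 1 higher (median 0.0320), against 19.4% and 19.7% of all genes, while scaling to a fixed sum gave 2 lower and 7 higher (median 0.32). Txnip, an arrestin-like protein that limits glucose uptake, averaged 143 ± 36.3 FPKM in cre_positive and 413 ± 123 FPKM in cre_negative ventricles (log2 change -1.50, limma adjusted p = 0.000488). Tbc1d4, which holds GLUT4 vesicles back, was lower by a log2 change of -0.84 and Arrdc4 by -0.42, and the sorting receptor Sort1 was higher by 0.62. Of 20 regulators of glycolytic transcription 6 were lower and 3 higher (median -0.0099), whereas scaling to a fixed sum gave 3 lower and 10 higher (median 0.26). Under that scaling 5487 of all 11688 genes tested were called higher and 1010 lower, with a median of 0.27. In both lists the side with more calls changed with the scale, and neither list was tested as a set. The prolyl hydroxylases Egln3 and Egln1, which mark hypoxia-inducible factors for destruction, had log2 changes of -1.32 and -1.20, and the glucose-sensing factor Mlxipl -1.31, while its partner Mlx was higher by 0.64 (limma adjusted p between 1.04e-06 and 0.00406 for these 4 genes).

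The pentose phosphate pathway had 2 higher (G6pdx, log2 change 0.42, and Pgd, 0.38) and 2 lower (Rpia, -0.52, and Taldo1, -0.35) of 8 tested (median 0.11). Over all genes tested 19.7% were called higher and 19.4% lower. Scaling to a fixed sum gave 5 higher and 0 lower there (median 0.39), beside 5487 higher and 1010 lower of all 11688 genes tested. The polyol pathway had the aldose reductases Akr1b8 (1.28) and Akr1b3 (0.93) higher and Khk (-0.45) lower of 4 (median 0.48), and gluconeogenesis had the muscle fructose bisphosphatase Fbp2 (-1.56) lower and Pck2 (0.32) higher of 5 (median -0.15). In the hexosamine pathway Gfpt2 (-0.54), Mgea5 (-0.30) and Uap1 (-0.29) were lower of 7 tested (median -0.14), and under scaling to a fixed sum Mgea5 and Uap1 stood at 0.0068 and 0.0153. Under that scaling the calls of Rpia, Taldo1, Gfpt2, Khk and Arrdc4 were lost too. Medians under it were -0.10 for the other isozymes, -0.22 for lactate and proton export and -0.43 for pyruvate dehydrogenase. They were 0.14 for gluconeogenesis, 0.16 for the hexosamine and 0.77 for the polyol pathway, beside 0.27 over all genes tested. The calls of Khk, Arrdc4 and Pck2 were weak, being lost in 8, 7 and 5 of the other settings, and Pck2 lost its call in the high Rn45s set, with a replicate block (adjusted p = 0.0542), without cre_positive library 4 (0.0570) and without cre_negative library 1 (0.0523).

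Promoter runs of 250 bases upstream were found in the RefSeq table for 31 of the 34 genes, and where a gene has several starts the one nearest to the 5′ end of the deposited locus was used. The run used for Pfkm lies 53845 bases and that for Pfkfb2 13205 bases from that end. Motifs were searched on both strands. ACGTG was in 3 of 9 runs of genes called higher (Slc2a1, Pgam1 and Ldha), in 3 of 10 runs of genes called lower (Hk2, Pfkm and Ldhd) and in 3 of 9 runs of tested genes not called (Pfkfb3, Pgk1 and Gpd1l), against 16.6% of the 32851 runs in the table. GGGCGG, the box bound by Sp factors, was in 6 of 9 runs of genes called higher, 3 of 10 of genes called lower and 4 of 9 of genes not called, against 32.7% of all runs. The MEF2 motif was in 2 of 10 runs of genes called lower (Pfkfb1 and Pgam2) and in 0 of 9 of genes called higher, against 1.69% of all runs, and AAGGTCA was in the run of Pfkfb1 alone among called genes, against 4.08% of all runs. The median share of G and C was 64.0% for genes called higher, 55.8% for genes called lower, 55.6% for genes not called and 52.4% for all runs. These are descriptions of letters in the runs, with no test.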

How the data were processed

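Per the submitters' processing notes, reads were handled with Bowtie2 2.2.6 and Cufflinks on mouse build mm10, and per the labels' protocols libraries were stranded total RNA depleted of ribosomal RNA. The authors deposited 1 table of FPKM values per gene and library, with no counts, and its lowest value, 0.01, stands in 32.6% to 39.0% of genes per library. The sources used here give no aligner settings, annotation or use of strand. The deposited FPKM were turned into log2(FPKM + 1) for the 11688 genes averaging 1 FPKM or more and compared with limma 3.58.1 in R 4.3.3 (lmFit, eBayes with trend), with Benjamini-Hochberg adjustment over these genes. Log2 changes on this scale understate the change of low genes. The p-values, including those of the permutation test, treat all libraries as independent. They measure the spread between these libraries, which may be technical. Ratios used a pseudocount of 0.01 FPKM. Depth was estimated from the FPKM of a single fragment in 3110 genes with 1 transcript of 800 to 4000 bases, and limits cover counting error only. Python 3.11.15, pandas 2.3.3 and numpy 2.4.6 were used for summaries. In 3 genes with a word in place of a number, those cells were treated as missing. The named genes are the 34 members, Med13, Med13l and, per pathway list, up to 4 called genes with the largest change; overlapping genes, Eno1b and markers were added after values were seen. The results of 2 genes this rule names are not reported here. The members and lists were chosen with earlier results of these data known. Alternatives were the pseudocount, the filter, 2 scalings, the eBayes trend, the Rn45s sets, a replicate block and leaving out each library.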

Additional observations from a re-analysis of the deposited data

Results flagged for a closer look

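In 4 of 86 groups of 4 values looked at (33 genes and the ratios of 10 pairs, in each of the 2 groups), 1 library lay so far from its group that its gap to the nearest other, divided by the range of the group, was above Dixon's 95% critical value. Chance flags about 1 in 20 groups. Slc2a1 was highest in cre_positive library 2, at 14.2 FPKM, and Ldhd lowest in cre_positive library 1, at 8.30 FPKM. In cre_negative library 2 both Gpi1, at 265 FPKM, and Ldhb, at 1515 FPKM, were highest. None of the 4 genes lost its call or changed direction when the library in question was left out.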

How the results depend on the processing

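The 21 called genes gave 377 values under 18 other settings, of which 0 changed direction and 27 lost the call, and 15 of the 21 genes kept their call in every setting that tested them. The losses were those of Eno1 (13 settings), Pkm (8), Pgam2 and Mpc1 (2 each, both scalings) and Gpi1 and Pfkl (low Rn45s set, 2 libraries against 1, which assumes that the lone library varies like the others). Scaling to a fixed sum gave 16 genes of the 34 and 5487 of all genes called higher and 1010 of all genes called lower, since it moves every library by 1 factor, and the low Rn45s set gave 6 of the 34 called higher. Leaving out each library gave 8 to 11 genes of the 34 called higher and 11 lower. Of all genes it gave 1862 to 2335 called higher and 1862 to 2317 called lower. The log2 ratio of Pfkfb3 to Pfkfb2 (0.83) passed from overlapping to separate groups at a pseudocount of 1 FPKM (0.76) and in the high (0.93) and low (0.87) Rn45s sets. Without single libraries it was 0.71 to 1.00, and the groups separated only without cre_positive 3 or cre_negative 4. The ratio of Aldoc to Aldoa (1.31) separated in the high (1.16) and low (2.51) sets, and of single libraries (0.79 to 1.67) only without cre_negative 3. Genes whose sign turned were Slc2a8 (-0.0321, high Rn45s set), Tpi1 (-0.19, low set) and Aldoa (-0.0436 with an Rn45s batch term, -0.27 in the low set, -0.0837 to 0.10 without single libraries). Under the fixed sum the sign turned for Pfkfb4 (0.0747), Gapdh (0.16), Gpd1l (0.21), Gpd2 (0.0280), Mgea5 (0.0068) and Uap1 (0.0153), and for the summed lactate dehydrogenase level (log2 fold 0.0273), and after quantile normalization for Gapdh (0.31). The cause was not tested. With a replicate block 8 of the 34 genes were called higher and 11 lower, and 1963 and 1899 of all genes. Libraries of the same number share only a number: their deviations correlated at -0.16 to -0.0776. Depth limits Pfkfb1, Aldoc, Slc2a3 and Eno2, the last 3 being below the filter.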
